A study of Homo sapiens with 8 samples.

Results

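The comparison of the F158E mutant with full-length PML/RARα rested on 4 of the 8 libraries in this study: 2 of cells that carried F158E and 2 of cells that carried full-length PML/RARα, chosen by their labels. The cells were NB4, an established line of acute promyelocytic leukemia that carries the PML/RARα fusion. In every group, lentiviral infection knocked down the endogenous fusion and supplied a replacement, and RNA was taken after 72 h. The replacement was HA-tagged full-length PML/RARα, the HA-tagged F158E or ΔIDR mutant, or an empty vector, with 2 libraries each, and the 2 empty vector libraries served here as the background. The labels call F158E and ΔIDR unable to undergo phase separation. The comparison therefore asked how the RNA of cells differed when the replaced fusion lacked that property. The labels name neither the promoter of the vectors nor any selection of infected cells, no group lacked the knock-down, and all libraries came from 1 line.

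PML/RARα joins most of PML, the scaffold protein of nuclear bodies, to the DNA- and ligand-binding parts of the retinoic acid receptor RARA. The fusion self-associates through the PML part, sits at retinoic acid receptor sites and other sites with its partner RXRA, and recruits corepressors with histone deacetylases. Cells with the fusion stop at the promyelocyte stage, in which primary granule proteins are made and genes of mature granulocytes are low. F158E replaces a phenylalanine by a glutamate in the B-box region of the PML part, a region through which PML associates with itself.

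Gene counts summed to 17372297 and 16979684 in the full-length libraries, 21930353 and 21918365 with F158E, and 18613826 and 19037914 with empty vector. Levels are CPM, counts scaled to the size of each library with edgeR's TMM factors, given as the values of replicates 1 and 2. Differences are log2 fold changes ± SE of F158E over full-length PML/RARα from edgeR's quasi-likelihood fit, n = 2 libraries in each group. A gene is called where its Benjamini-Hochberg adjusted p over all 13982 tested genes was under 0.05, and "rose", "fell", "higher" and "lower" refer to F158E against full-length unless another group is named. Where F158E is placed beside the other groups, these are full-length and empty vector, and ΔIDR is left out unless named. Separate cultures for replicates 1 and 2 are not mentioned in the labels. The p-values therefore cover the spread between libraries of a group, pooled over the 4 groups and drawn toward that of other genes (78.3 prior degrees of freedom). This spread may be of technical origin. Markers of the myeloid line were present: all 14 listed had enough counts to test, of which 11 were higher and 1 lower with F158E, among them MPO at 3461 and 3437 CPM with full-length PML/RARα and 4110 and 3995 CPM with F158E.

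The genes that make up the fusion differed in level between the groups. RARA (ENSG00000131759.16, chromosome 17, positions 40309192 to 40357643, GRCh38), the retinoic acid receptor, was at 78.3 and 75.6 CPM in the full-length libraries, 32.4 and 32.2 CPM with F158E and 24.1 and 22.1 CPM with empty vector. PML (ENSG00000140464.18, chromosome 15, positions 73994673 to 74047812) was at 127 and 121 CPM with full-length, 65.8 and 66.1 CPM with F158E and 51 and 52.8 CPM with empty vector. For both genes the F158E libraries lay between the other groups and nearer to empty vector, with no overlap. RARA fell by 1.25 ± 0.05 (adjusted p = 5.39e-39) and PML fell by 0.91 ± 0.05 (adjusted p = 1.69e-29). After subtraction of the empty vector mean, the level left with F158E was 17.1% of that left with full-length for RARA and 19.4% for PML. Reads of transgene, fusion and normal alleles are not separated in these counts. Mutation and PML/RARA RNA level thus differed between the same libraries, and their parts in the results that follow cannot be told apart.

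**Figure D1:**
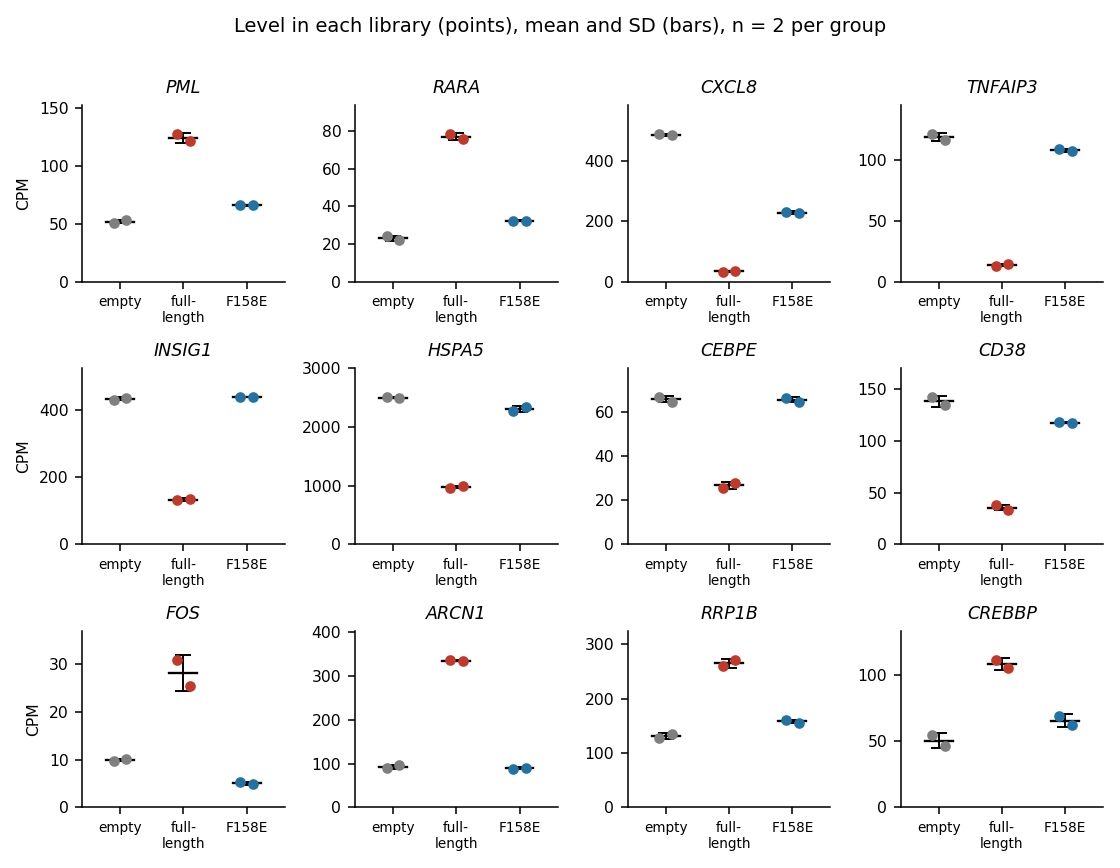
Level of 12 genes in CPM (vertical axes, from 0) in each library of the empty vector, full-length and F158E groups; points are libraries, long bars the mean and short bars the SD. Among the groups drawn, PML and RARA are highest with full-length PML/RARα. CXCL8 with F158E lies between the other groups, and INSIG1 and CEBPE with F158E lie at the empty vector level.

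Between F158E and full-length PML/RARα, 6126 genes (43.8% of those tested) were called, 3089 higher (22.1%) and 3037 lower (21.7%) with F158E. At least 2-fold differences were called in 1042 genes (7.45%), 610 of them higher (4.36%) and 432 lower (3.09%). The libraries of the 2 groups did not overlap in 69.2% of all tested genes, so a gap between groups of 2 libraries is common and is given below only to describe a gene. Against empty vector the same F158E libraries differed in 1208 genes (8.64%), 555 higher (3.97%) and 653 lower (4.67%). Full-length PML/RARα differed from empty vector in 48.5% of genes. These comparisons share libraries, so the values against empty vector are set beside the main ones and are no independent evidence. The median log2 change over all tested genes was -0.0016. In bulk RNA, fewer cells of a kind and less RNA per cell cannot be told apart.

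Most tested genes of the NF-kB system and most chemokines rose. NF-kB factors are held in the cytoplasm by inhibitors, and many of the inhibitors are themselves NF-kB targets. Of 23 tested factors, inhibitors and adaptors, 14 rose and 2 fell, with a median log2 change of 0.96. TNFAIP3, an enzyme that shuts down NF-kB signalling, was at 12.8 and 14.2 CPM in the full-length libraries, 109 and 107 CPM with F158E and 121 and 116 CPM with empty vector. Its F158E and full-length libraries lay far apart, and it rose by 3.0 ± 0.08 (8.0-fold, adjusted p = 4.30e-51), the largest rise among well-counted protein-coding genes. Against empty vector TNFAIP3 was not called in F158E cells (log2 change -0.14, adjusted p = 0.16). NFKB2, which encodes the precursor of the p52 subunit, was at 31.5 and 29 CPM with full-length PML/RARα and 108 and 107 CPM with F158E (1.83 ± 0.07). NFKBIA, the inhibitor IκBα, stood at 32 and 35.3 CPM with full-length and 97.5 and 103 CPM with F158E (1.58 ± 0.07). The subunit genes did not move as a block: NFKB1 rose by 1.03 ± 0.05 and RELB by 1.41 ± 0.15, RELA fell by 0.31 ± 0.07, and REL was not called (0.019 ± 0.14). The adaptor TNIP1 also fell by 0.30 ± 0.08.

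Chemokines and cytokines carry NF-kB output to other cells. Of 26 tested members, 20 rose and 3 fell, and the median log2 change was 1.75. CXCL8, the neutrophil attractant interleukin 8, was at 32.7 and 35 CPM with full-length PML/RARα, 233 and 226 CPM with F158E and 489.7 and 486 CPM with empty vector. All 6 libraries kept that order by group. CXCL8 rose by 2.76 ± 0.04 over full-length (6.78-fold, adjusted p = 6.01e-67) and lay below empty vector (log2 change -1.09, adjusted p = 9.05e-45). CCL2, a monocyte attractant, took the same middle position, with 6.48 and 5.13 CPM with full-length, 30.5 and 28.5 CPM with F158E and 62.5 and 62.8 CPM with empty vector (2.34 ± 0.12 over full-length). IL1B, interleukin 1 beta, was at 1.82 and 3.03 CPM with full-length, 13.6 and 15.3 CPM with F158E and 36.6 and 40.01 CPM with empty vector, again between the other groups (2.57 ± 0.17). CCL4 had no count in either full-length library and 64 counts over both F158E libraries, at least 16.7-fold higher against a floor of 3 counts over the group. The T cell attractant CCL5 rose by 1.14 ± 0.07. Of the falls, TNFSF13B, the B cell factor BAFF, fell by 0.82 ± 0.12 from 23.9 and 25.2 CPM, and IL1RN and IL32 lay under 6 CPM, IL1RN losing its call without any of the 4 libraries (adjusted p between 0.0513 and 0.222) and IL32 without 3 of them. The number of falls was 1 without F158E replicate 2, full-length replicate 1 or full-length replicate 2, and also 1 with DESeq2 or with no filter beyond 1 count. Against empty vector 1 member was higher with F158E and 9 were lower.

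The start of CXCL8 is shown because AP-1 genes, described further on, moved in opposite directions. The window holds the 250 bases before the RefSeq start on chr4:73740319-73740568 (GRCh38.p14, plus strand), 5′ to 3′, and the capitals mark the letters TGANTCA of an AP-1 site, 137 bases before the start.
CXCL8: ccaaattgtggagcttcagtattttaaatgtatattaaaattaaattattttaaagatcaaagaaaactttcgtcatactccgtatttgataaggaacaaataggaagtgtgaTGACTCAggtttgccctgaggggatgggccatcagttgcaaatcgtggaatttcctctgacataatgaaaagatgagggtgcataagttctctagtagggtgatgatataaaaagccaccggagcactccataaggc
Of the 20 chemokine and cytokine genes with a RefSeq promoter, 4 held this AP-1 motif on either strand (CXCL8, IL1A, IL1RN and EBI3), against 7.71% of all promoter windows. A kappaB core, spelled GGG, then 5 bases of any kind, then CC, stood in 15 of these 20 genes and in 20 of the 20 NF-kB factor genes with a promoter, against 58.7% of all windows and 78.8% of tested genes. A match describes the letters and does not show binding.

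Interferon-stimulated genes split. These genes encode antiviral proteins that type I interferon induces. Of 42 tested, 20 rose and 8 fell, with a median of 0.42. The share of falls was near the 21.7% over all tested genes, and that of rises above 22.1%, a comparison not matched for level. IFIT2, which binds viral RNA, was at 6.42 and 5.83 CPM with full-length PML/RARα, 30.4 and 31.3 CPM with F158E and 28.9 and 29.5 CPM with empty vector, a rise of 2.33 ± 0.13. Its F158E libraries lay close to empty vector and were not called against it (adjusted p = 0.741). IFIH1, the RNA sensor MDA5, went from 9.04 and 7.81 to 34.2 and 34.8 CPM (2.03 ± 0.12), and IFIT3 and OASL rose by 2.17 ± 0.11 and 3.03 ± 0.23. In the other direction IFI16, a DNA sensor, was at 18.3 and 19.2 CPM with full-length and 5.71 and 7.13 CPM with F158E, and fell by 1.55 ± 0.19. ADAR, which edits double-stranded RNA, fell by 0.33 ± 0.03, and MX2 fell by 0.36 ± 0.05. Without full-length replicate 1 there were 5 falls. The signal transducer STAT2 was not called (-0.23 ± 0.13). Of 14 tested genes of antigen presentation, 3 rose and 5 fell, beside 22.1% and 21.7% over all tested genes. HLA-E fell by 0.36 ± 0.07 and B2M, the shared light chain of class I molecules, rose by 0.21 ± 0.02. Falls numbered 2 without F158E replicate 1 or without full-length replicate 1, and 3 without full-length replicate 2 or with DESeq2. HLA-B and most class II genes were not tested because of low counts.

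Most tested chaperones of the endoplasmic reticulum (ER) rose. They fold and quality-check secreted and membrane proteins, and many carry the ER stress response element, which the factors ATF6 and NF-Y read. Of 22 tested folding genes, 16 rose and the other 6 were not called, with a median of 0.67 and rises of 0.17 to 1.79. HSPA5, the chaperone BiP, was at 966 and 992 CPM with full-length PML/RARα, 2272 and 2336 CPM with F158E and 2502 and 2490 CPM with empty vector. It rose by 1.23 ± 0.02 (adjusted p = 6.01e-67), and its F158E libraries stopped just short of empty vector (log2 change -0.12, adjusted p = 4.99e-06). CALR, calreticulin, a calcium-binding lectin chaperone, was among the most counted genes of these libraries, with 3836 and 3878 CPM against 8212 and 8116 CPM (1.08 ± 0.01). HSP90B1, the HSP90 of the ER, was at 1406 and 1420 CPM with full-length and 2850 and 2875 CPM with F158E (1.02 ± 0.02). MANF, a secreted ER stress protein, rose by 1.36 ± 0.05. ERO1A and UGGT1 were not called (-0.048 ± 0.05 and -0.016 ± 0.04), while ERO1B rose by 1.79 ± 0.21 from 3.35 and 3.44 CPM.

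Promoter windows of 4 folding genes are shown because 7 of the 21 folding genes with a promoter held the same motif. Each holds the 250 bases before the RefSeq start (GRCh38.p14), 5′ to 3′ on the gene's strand, with matches to the ER stress response element, spelled CCAAT, then 9 bases of any kind, then CCACG, in capitals: HSPA5 on chr9:125241344-125241593 (minus strand, match 66 bases before the start), HSP90B1 on chr12:103930160-103930409 (plus, 194 and 89), CALR on chr19:12938359-12938608 (plus, 225) and CRELD2 on chr22:49918384-49918633 (plus, 80).
HSPA5: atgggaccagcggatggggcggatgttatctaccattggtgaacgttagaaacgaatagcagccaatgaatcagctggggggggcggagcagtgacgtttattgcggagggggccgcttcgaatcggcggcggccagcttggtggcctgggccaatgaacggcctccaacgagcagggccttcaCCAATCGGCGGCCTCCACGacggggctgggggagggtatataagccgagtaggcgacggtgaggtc
HSP90B1: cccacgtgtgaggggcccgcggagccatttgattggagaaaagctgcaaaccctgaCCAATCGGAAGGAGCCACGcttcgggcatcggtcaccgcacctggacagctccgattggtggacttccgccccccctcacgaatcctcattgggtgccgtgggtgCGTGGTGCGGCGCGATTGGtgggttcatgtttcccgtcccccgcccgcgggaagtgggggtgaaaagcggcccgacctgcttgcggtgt
CALR: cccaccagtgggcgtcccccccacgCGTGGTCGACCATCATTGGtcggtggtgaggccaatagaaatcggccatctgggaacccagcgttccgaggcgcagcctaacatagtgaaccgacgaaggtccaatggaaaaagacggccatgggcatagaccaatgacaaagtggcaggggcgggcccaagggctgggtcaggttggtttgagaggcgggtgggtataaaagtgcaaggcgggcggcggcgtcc
CRELD2: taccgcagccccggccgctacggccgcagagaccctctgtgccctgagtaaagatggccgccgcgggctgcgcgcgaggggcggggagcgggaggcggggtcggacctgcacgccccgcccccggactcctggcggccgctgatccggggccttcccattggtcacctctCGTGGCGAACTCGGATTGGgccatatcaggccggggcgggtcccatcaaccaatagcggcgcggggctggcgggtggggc
The motif, searched on both strands from 250 bases before to 50 bases after the start, stood in 7 of the 21 folding genes with a RefSeq promoter. These 7 were the 4 above, CANX, PDIA6 and ERO1B, and all of them rose. With or without the motif, 15 of the 21 genes rose and 0 fell, so a link between motif and direction was not tested. The motif stood in 0.0769% of all 35116 promoter windows and in 0.149% of the 10045 tested genes with a promoter. No match was found among the 20 genes of ER degradation and translocation with a promoter.

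The unfolded protein response also includes protein disposal, sensors and transcription factors. Of 23 genes that return misfolded proteins to the cytosol or form the translocon, 15 rose, with rises of 0.15 to 0.90. EDEM1, which marks misfolded glycoproteins, rose by 0.66 ± 0.06, and HERPUD1 by 0.90 ± 0.09. The translocon subunits SEC61A1, SEC61B and SEC61G were not called. SSR3 fell by 0.14 ± 0.04, a call lost without F158E replicate 2 or full-length replicate 1. Of 12 sensors and factors, 7 rose and 2 fell, the latter 1 without F158E replicate 2 or full-length replicate 1. DDIT3, the stress factor CHOP, was at 5.40 and 3.38 CPM with full-length and 12.6 and 12.8 CPM with F158E (1.53 ± 0.20), and ATF3, another stress factor, rose by 1.12 ± 0.21. ATF4, the amino acid stress factor, went from 299 and 289 to 386 and 389 CPM (0.40 ± 0.03). CREB3L2, a membrane-bound factor of secretory cells, fell by 0.69 ± 0.05. XBP1 had no count in any library and could not be assessed.

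Amino acid genes under ATF4 did not move together. Of 29 tested, 14 rose and 6 fell. SLC7A11, the cystine importer, was at 55 and 52.8 CPM with full-length PML/RARα, 161 and 162 CPM with F158E and 267 and 274 CPM with empty vector. It rose by 1.58 ± 0.05 and stayed below empty vector (log2 change -0.75, adjusted p = 1.37e-26). DDIT4, an inhibitor of mTOR, rose by 1.22 ± 0.08, and SLC38A2, a glutamine carrier, by 0.55 ± 0.02. SLC7A5, the leucine importer, fell by 0.45 ± 0.03 from 1078 and 1025 to 787 and 753 CPM. Its partner SLC3A2 fell by 0.34 ± 0.04. The tRNA synthetases GARS1 and AARS1 fell by 0.35 ± 0.04 and by 0.37 ± 0.05 in that order, whereas MARS1 rose by 0.20 ± 0.04. ASNS, PSAT1 and PHGDH were not called (-0.22 ± 0.10, 0.025 ± 0.05 and -0.036 ± 0.07), although ASNS was called as lower without full-length replicate 1 (adjusted p = 0.0252). The C/EBP-ATF core letters TGATGNAAN stood in 12 of the 25 genes with a promoter, in 4 of the 11 that rose and 4 of the 5 that fell, against 3.61% of all windows.
Windows of a riser and a faller with the motif are shown to set the directions side by side. CEBPG, a C/EBP partner of ATF4, rose by 0.41 ± 0.08 and is on chr19:33373863-33374112 (plus strand, match 42 bases before the start); AARS1 is on chr16:70289507-70289756 (minus, 188).
CEBPG: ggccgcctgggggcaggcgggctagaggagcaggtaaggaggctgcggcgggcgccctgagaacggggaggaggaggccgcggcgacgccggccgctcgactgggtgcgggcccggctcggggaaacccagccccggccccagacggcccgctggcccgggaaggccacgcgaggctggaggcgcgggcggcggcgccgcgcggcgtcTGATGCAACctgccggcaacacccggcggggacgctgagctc
AARS1: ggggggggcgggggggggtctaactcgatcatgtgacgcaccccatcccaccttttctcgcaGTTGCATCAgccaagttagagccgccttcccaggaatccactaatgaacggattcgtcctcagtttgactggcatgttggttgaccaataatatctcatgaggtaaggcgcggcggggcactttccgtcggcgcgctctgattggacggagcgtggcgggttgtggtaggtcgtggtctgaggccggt

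RNA of cholesterol synthesis enzymes rose with F158E at most steps that were tested. The pathway runs from acetyl units over mevalonate and squalene to cholesterol, and the factors SREBF1 and SREBF2 raise it when sterols are low. Of 21 tested enzymes, 17 rose and 1 fell, with a median of 0.66. HMGCS1, which makes the precursor of mevalonate, was at 83.9 and 92.5 CPM with full-length PML/RARα, 253 and 255 CPM with F158E and 257 and 254 CPM with empty vector. F158E and empty vector libraries overlapped, and HMGCS1 rose by 1.53 ± 0.04 over full-length (adjusted p = 5.43e-48). The later enzyme MSMO1, a sterol oxidase, rose by 1.5 ± 0.08 from 26.6 and 26.5 to 75.6 and 75.1 CPM. EBP, a sterol isomerase, was the exception with 86.8 and 87.2 CPM against 61.1 and 58.3 CPM and fell by 0.54 ± 0.07. PMVK, GGPS1 and TM7SF2 were not called, and CYP51A1 was near 0 counts in every library and could not be assessed.

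Regulators of the pathway moved apart. INSIG1, which retains the SREBP complex in the ER, was at 131 and 136 CPM with full-length PML/RARα, 438 and 438 CPM with F158E and 431 and 437 CPM with empty vector, a rise of 1.71 ± 0.03. SCAP, the escort that INSIG1 binds, was at 126 and 117 CPM with full-length, 62.9 and 61.7 CPM with F158E and 59.2 and 59.9 CPM with empty vector and fell by 0.96 ± 0.07. Both genes thus came to the empty vector level from opposite sides. SREBF1 and SREBF2 rose by 0.76 ± 0.05 and 0.66 ± 0.05, and the carrier STARD4 by 1.48 ± 0.09. SOAT1, which stores cholesterol as ester, fell by 0.51 ± 0.09, and the exporter ABCA1 was not called (-0.08 ± 0.07). In all, 7 of 16 regulators rose and 2 fell. Of 16 fatty acid genes, 12 rose, led by the desaturases FADS2 (1.32 ± 0.03) and SCD (0.65 ± 0.02) and the acyl-CoA synthetase ACSL1 (0.94 ± 0.04), while FASN and ACLY rose by only 0.22 ± 0.03 and 0.16 ± 0.03. SCD was at 1334 and 1322 CPM with F158E, above 1109 and 1141 CPM with empty vector (log2 change 0.24, adjusted p = 2.69e-14). The falls were ACSS2 and TMEM97 (-0.52 ± 0.16 and -0.19 ± 0.06), and the number of falls was 1 without F158E replicate 2 or without full-length replicate 1. The letters TCACNCCAC of a sterol regulatory element core were not found in the 16 synthesis genes with a promoter and stood in 1 of 15 regulators (SREBF2) and 1 of 15 fatty acid genes (ACSL1), against 1.13% of all windows. Sites spelled otherwise or outside the windows were not searched for, so a gene without a match may still hold a sterol element.

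Genes of granulocyte granules and of the phagocyte rose in part. Primary granules, filled at the promyelocyte stage, hold peroxidase and serine proteases. Of 22 tested genes, 12 rose and 5 fell. AZU1, the antimicrobial protein azurocidin, was at 27.9 and 27.5 CPM with full-length PML/RARα, 59.5 and 61 CPM with F158E and 73.9 and 72.1 CPM with empty vector (1.12 ± 0.08). SRGN, the proteoglycan that packs granule proteins, rose by 0.80 ± 0.02 from 2191 and 2238 to 3848 and 3880 CPM. MPO, myeloperoxidase, rose by only 0.23 ± 0.02, and its F158E libraries lay above empty vector (3833 and 3765 CPM, log2 change 0.093, adjusted p = 3.74e-05). The falls were enzymes shared with lysosomes, such as CTSD (-0.42 ± 0.07) and HEXA (-0.32 ± 0.07), besides CD63 and CST7. HEXA was not called without F158E replicate 1 (adjusted p = 0.0628), nor CST7 without full-length replicate 1 (adjusted p = 0.125). ELANE was near 0 counts in every library, was not tested and could not be assessed. Most genes of later granules were hardly expressed. Their list also held defensins, which belong to primary granules, and S100 proteins of the cytosol. Of its 12 tested genes, 5 rose (MMP9, FCN1, S100A9, DEFA3 and DEFA4) and 2 fell. MMP9, the gelatinase, was the best counted at 62.6 and 65.4 CPM with full-length, 180.0 and 172 CPM with F158E and 355 and 346 CPM with empty vector (1.46 ± 0.05). DEFA3 had enough counts to test only through ΔIDR, with 10.1 and 10.4 CPM there. There were 3 rises without full-length replicate 2 or in a fit of the 4 libraries alone, and 1 fall without full-length replicate 1. DEFA3, which shares reads with near-identical defensin copies, rested on 8 counts with F158E and 0 with full-length, and its call was lost without either full-length library (adjusted p = 0.0775 and 0.061).

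The phagocyte NADPH oxidase makes superoxide from a membrane core, CYBB and CYBA, and cytosolic subunits. NCF1, the organizing subunit, was at 6.88 and 5.71 CPM with full-length PML/RARα, 25.2 and 22.3 CPM with F158E and 57.2 and 54.9 CPM with empty vector. It rose by 1.91 ± 0.11 and stayed below empty vector (log2 change -1.24, adjusted p = 1.67e-23), with the limit that near-identical copies share its reads. CYBA and RAC2 rose by 0.51 ± 0.06 and 0.59 ± 0.06. CYBB, the catalytic subunit, was at 279 and 282 CPM with full-length and 288 and 299.8 CPM with F158E, close to each other and not called (0.064 ± 0.03, adjusted p = 0.105), against 430.5 and 445 CPM with empty vector (log2 change of F158E against empty vector -0.58, adjusted p = 3.52e-27). NCF4 fell by 0.29 ± 0.10, a call lost without F158E replicate 1 or full-length replicate 1. In all, 4 of 8 rose, 1 fell, and 6 were below empty vector with F158E.

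Surface molecules and receptors split by gene. Of 31 phagocyte surface genes, 15 rose and 6 fell, and falls numbered 3 without F158E replicate 2. CD38, an ectoenzyme that retinoic acid induces, was at 37.6 and 33.7 CPM with full-length PML/RARα, 118 and 117 CPM with F158E and 142 and 135 CPM with empty vector (1.72 ± 0.06). ICAM1, the integrin ligand, rose by 2.27 ± 0.06 from 25.4 and 23.9 to 125 and 112 CPM. ITGAM, the CD11b chain of mature phagocytes, was lower with F158E, at 20.1 and 20.1 CPM against 30.2 and 27.2 CPM (-0.51 ± 0.12), and ICAM3 fell by 1.21 ± 0.19. The integrin chain ITGB2 was not called (0.0057 ± 0.05). Among 28 receptors of cytokines and attractants, 15 rose and 4 fell. C3AR1 and C5AR1, receptors of sister complement fragments, went in opposite directions. C3AR1 was at 29.5 and 33.4 CPM with full-length and 129 and 115 CPM with F158E (1.96 ± 0.06). C5AR1 stood at 13.2 and 13.5 CPM with full-length and 6.30 and 5.71 CPM with F158E and fell by 1.15 ± 0.17, while empty vector had 12.5 and 12.5 CPM. CXCR4, which holds cells in the marrow, rose by 1.29 ± 0.08. CSF3R, the receptor of the granulocyte growth factor G-CSF, fell by 0.95 ± 0.14 from 27.2 and 26.8 to 15.3 and 12.7 CPM, and IL6R fell by 0.62 ± 0.09.

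Myeloid transcription factors rose in 20 of 40 tested cases and fell in 5. CEBPE, needed for the later granules, was at 25.8 and 27.9 CPM with full-length PML/RARα, 66.5 and 64.7 CPM with F158E and 66.7 and 64.7 CPM with empty vector. It rose by 1.29 ± 0.08 to the level of empty vector (log2 change against it -0.0013). CEBPA and SPI1, the founding factors of the granulocyte and monocyte lines, rose by 0.50 ± 0.06 and 0.30 ± 0.05, and GFI1 by 0.37 ± 0.05. GATA2, a factor of stem cells and of the basophil and mast cell branch, went from 89.1 and 83.1 to 219.8 and 224 CPM (1.36 ± 0.04). MYB, a factor of immature blood cells, rose by 0.52 ± 0.03, and LMO2, a partner of GATA factors, by 0.87 ± 0.07. KLF6, a zinc finger factor, was at 42.2 and 37 CPM with full-length, 13 and 11.6 CPM with F158E and 18.2 and 21 CPM with empty vector, and fell by 1.69 ± 0.13 to below empty vector (adjusted p = 1.23e-04). MEF2C fell by 1.38 ± 0.20, and IRF8 was under 3 CPM and not called.

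Within AP-1, FOS and FOSB fell while JUN and JUND rose. AP-1 is a dimer of a FOS protein with a JUN protein, and its genes respond within minutes to signals. FOS was at 30.9 and 25.5 CPM with full-length PML/RARα, 5.25 and 4.84 CPM with F158E and 9.71 and 10.1 CPM with empty vector. It fell by 2.48 ± 0.17 (adjusted p = 4.88e-23) and was also below empty vector (log2 change -0.97, adjusted p = 3.80e-05). FOSB fell by 2.1 ± 0.32, while FOSL2 rose by 0.51 ± 0.08 and FOSL1 by 0.32 ± 0.13 (adjusted p = 0.0379). The call of FOSL1 was lost without any of the 4 libraries, with adjusted p between 0.0614 and 0.216. JUND was at 15.2 and 17.7 CPM with full-length and 49.7 and 58.5 CPM with F158E (1.72 ± 0.10), and JUN rose by 1.07 ± 0.10. JUNB was not called (0.018 ± 0.07), nor was EGR1 (0.13 ± 0.21). BTG2, an antiproliferative early gene, rose by 2.43 ± 0.17 from 2.9 and 3.73 to 16.4 and 19.3 CPM. Of all 28 tested genes of this kind, 15 rose and 6 fell, and falls numbered 3 without F158E replicate 1 or full-length replicate 1. Genes of ERK feedback and ERK output fell in 6 and rose in 4 of 16 cases, beside 21.7% and 22.1% over all tested genes. DUSP6, which damps the signal, fell by 0.25 ± 0.05. Of the outputs, ETV4 fell by 0.81 ± 0.08 and CCND1 rose by 0.57 ± 0.07. Of 19 STAT pathway genes 7 rose, led by STAT5A (0.73 ± 0.08). STAT3 fell by 0.48 ± 0.06.

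Retinoic acid response genes include the classical targets of PML/RARα repression. Of 22 tested, 6 rose and 4 fell, shares near the 22.1% and 21.7% over all genes. Besides CD38 and CCL2, TNFAIP2, a gene that retinoic acid induces, was at 32.7 and 35 CPM with full-length, 65.7 and 69.95 CPM with F158E and 105 and 112 CPM with empty vector (1.0 ± 0.07). RXRA, the partner receptor, rose by 0.67 ± 0.05 and ASB2 by 1.57 ± 0.24. RARB and CYP26A1, the standard reporters of retinoic acid, were too low to test, and DHRS3 and ALDH1A1 were not called. The falls were ICAM3 (-1.21 ± 0.19), CDKN1A (-1.21 ± 0.25), UBE2L6 (-1.44 ± 0.55, adjusted p = 0.0281) and PML, which is part of the construct. UBE2L6 was not called without F158E replicate 1 (adjusted p = 0.0574), F158E replicate 2 (0.136) or full-length replicate 1 (0.955, log2 change -0.077), nor with DESeq2 (0.0672). The labels name no treatment with retinoic acid.

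Most tested corepressors and coactivators of nuclear receptors fell. Of 26 tested genes, 16 fell and 5 rose, with a median of -0.25. CREBBP, an acetyltransferase, was at 111 and 105 CPM with full-length PML/RARα, 69 and 61.8 CPM with F158E and 54.2 and 46.2 CPM with empty vector, and fell by 0.72 ± 0.07 (adjusted p = 8.71e-15). Its paralogue EP300 was not called (0.014 ± 0.05), nor was the corepressor NCOR1 (-0.06 ± 0.04). Histone deacetylases HDAC2, HDAC3 and HDAC5 fell by 0.30 ± 0.04, by 0.34 ± 0.06 and by 0.62 ± 0.11, and HDAC4 rose by 0.43 ± 0.09. TBL1X fell by 0.45 ± 0.08 while its paralogue TBL1XR1, in the same complex, rose by 0.40 ± 0.04. Against empty vector 4 of these genes were higher with F158E.

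Chromatin silencers and nuclear body genes showed no common direction. Of 27 DNA methylation and Polycomb genes, 9 rose and 7 fell, beside 22.1% and 21.7% over all tested genes. Members of Polycomb complex PRC2, EZH2 and MTF2, rose by 0.27 ± 0.04 and 0.52 ± 0.05, whereas CBX2, which reads the PRC2 mark, fell by 1.1 ± 0.09. CBX2 was at 69.3 and 69.2 CPM with full-length PML/RARα and 35.2 and 29.2 CPM with F158E. Among 32 genes of nuclear bodies and SUMO conjugation, the modification that holds PML bodies together, 12 rose and 8 fell, beside the same shares. RNF4, the ligase that degrades SUMO-bearing PML, rose by 0.37 ± 0.04, and SAE1, which activates SUMO, fell by 0.20 ± 0.03. DAXX was not called (-0.11 ± 0.07). Rises numbered 6 without full-length replicate 1, and falls 5 without full-length replicate 2.

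Most tested genes that build ribosomes fell. Of 51 tested nucleolar assembly genes, 33 fell and 8 rose, with a median of -0.24. RRP1B, a nucleolar processing factor, was at 259 and 271 CPM with full-length PML/RARα, 160.4 and 156 CPM with F158E and 128 and 135 CPM with empty vector, and fell by 0.75 ± 0.04. It remained above empty vector (log2 change 0.27, adjusted p = 4.53e-06). NAT10, which acetylates ribosomal RNA, was at 263 and 269 CPM with full-length, 159 and 156 CPM with F158E and 139.7 and 135 CPM with empty vector, and fell by 0.75 ± 0.04. TCOF1, the treacle protein, fell by 0.61 ± 0.04 and the RNA polymerase I subunit POLR1A fell by 0.40 ± 0.04. Some of the best counted members stood apart: NCL was not called (-0.002 ± 0.02), DKC1 rose by 0.23 ± 0.03, and NPM1 rose by 0.046 ± 0.02 (adjusted p = 0.0307), a call lost without F158E replicate 1, F158E replicate 2 or full-length replicate 1, with adjusted p between 0.0586 and 0.225. Against empty vector 16 were higher and 1 lower with F158E. Of 78 cytosolic ribosomal protein genes, 42 fell and 2 rose, by small amounts with a median of -0.078. RPL4 fell by 0.48 ± 0.02 and RPS2 fell by 0.30 ± 0.02, while RPL35A rose by 0.26 ± 0.03. Pseudogene copies of these genes may share their reads. EEF1A1, the translation elongation factor and the most counted gene of these 4 libraries, fell by 0.67 ± 0.01 from 11297 and 11395 to 7060 and 7159 CPM. It was chosen after its values were seen.

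MYC, a transcription factor that drives ribosome genes, was at 583 and 566 CPM with full-length PML/RARα, 507 and 483 CPM with F158E and 454 and 451 CPM with empty vector, and fell by 0.21 ± 0.03 (adjusted p = 2.53e-09). Its partner MAX was not called (0.016 ± 0.05), and of 12 tested genes of the MYC network 4 fell and 1 rose. MXD1, a repressor that competes with MYC for MAX, rose by 1.18 ± 0.10 from 20.2 and 18.5 to 40.9 and 47.1 CPM. MXI1, of the same repressor family, fell by 0.61 ± 0.11. MLX, the MAX-like partner of the glucose sensors, fell by 1.45 ± 0.08 and MLXIP fell by 0.52 ± 0.07. MYC with MAX binds the E-box CACGTG, and the window of NAT10 shows such a motif in capitals, 15 bases before the start on chr11:34105379-34105628 (GRCh38.p14, plus strand).
NAT10: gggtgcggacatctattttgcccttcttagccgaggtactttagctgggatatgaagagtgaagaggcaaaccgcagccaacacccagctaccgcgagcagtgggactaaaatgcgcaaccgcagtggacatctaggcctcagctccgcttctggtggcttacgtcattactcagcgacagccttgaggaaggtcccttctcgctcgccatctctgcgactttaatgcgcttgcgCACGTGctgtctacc
The E-box stood in 18 of the 42 ribosome assembly genes with a promoter, in 10 of the 25 that fell and 3 of the 8 that rose. It stood in 7.26% of all promoter windows and 12.7% of tested genes with a promoter.

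**Figure D2:**
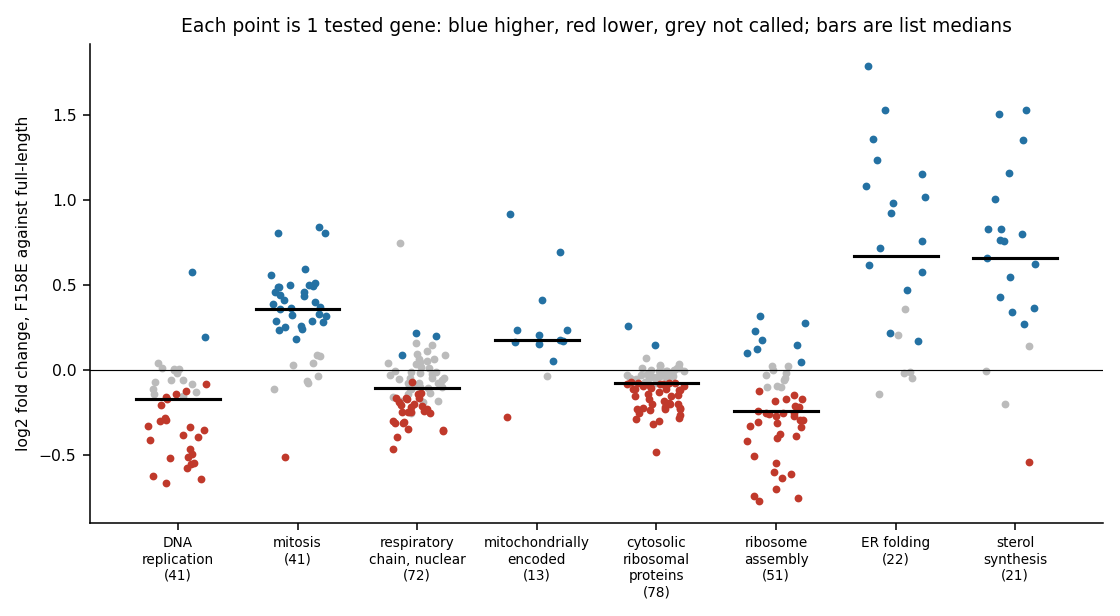
Log2 fold change of F158E over full-length PML/RARα (vertical axis) for every tested gene of 8 lists, with the number tested in brackets; blue points rose, red points fell, grey points were not called, and black bars are list medians. DNA replication genes lie mostly below 0 and mitosis genes above it, and the median is -0.11 for nuclear genes of the respiratory chain and 0.17 for mitochondrially encoded ones, a difference that was not tested.

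The respiratory chain is built from genes of the mitochondrial and the nuclear genome. Of 13 mitochondrially encoded genes, 11 rose and 1 fell, with a median of 0.17. MT-ND5, a complex I subunit, was at 787 and 833 CPM with full-length PML/RARα, 1315 and 1307 CPM with F158E and 1314 and 1339 CPM with empty vector (0.70 ± 0.02). MT-ND6, which the other strand of mitochondrial DNA encodes, rose by 0.92 ± 0.04. MT-CO2, a subunit of complex IV, was the exception and fell by 0.28 ± 0.02, while MT-CO1 rose by 0.24 ± 0.02. Mitochondrially encoded genes took 3.33% and 3.33% of counts in the full-length libraries, 3.70% and 3.70% with F158E and 3.71% and 3.72% with empty vector. Of 72 nuclear genes of the chain, 27 fell and 3 rose (median -0.11), with 1 rise without full-length replicate 1 or with library totals alone, and the other 42 were not called. ATP5F1B, the catalytic subunit of ATP synthase, fell by 0.31 ± 0.02 and NDUFB10 of complex I fell by 0.47 ± 0.06. Mitochondrial ribosomal proteins fell in 25 and rose in 12 of 77 cases, beside 21.7% and 22.1% over all tested genes, a comparison not matched for level. MRPL4 was at 394 and 386 CPM against 225 and 215 CPM. Genes of mitochondrial transcription and import fell in 14 of 27, and in 9 without F158E replicate 1. TFAM, which packs mitochondrial DNA, fell by 0.15 ± 0.04, and the polymerase POLRMT was not called (0.018 ± 0.08).

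Genes of glycolysis and nucleotide synthesis fell in part. Of 27 glycolysis genes, 12 fell and 4 rose. ENO1, enolase, was at 2822 and 2859 CPM with full-length PML/RARα, 1816 and 1839 CPM with F158E and 1662 and 1706 CPM with empty vector, and fell by 0.64 ± 0.02. Lactate dehydrogenase LDHA fell by 0.24 ± 0.02 and HK2 fell by 0.41 ± 0.04. SLC16A3, which exports lactate, went the other way, from 187 and 181 to 387 and 360.2 CPM (1.02 ± 0.03). Hypoxia response genes rose in 7 and fell in 7 of 26 cases, beside 22.1% and 21.7% over all tested genes. HIF1A was not called (-0.011 ± 0.05), and VEGFA rose by 0.64 ± 0.08. Of 23 nucleotide synthesis genes, 13 fell and 3 rose. IMPDH2, which commits purines to guanine nucleotides, fell by 0.83 ± 0.04 from 360.3 and 363 to 197 and 210.4 CPM. The ribonucleotide reductase subunits RRM2 and RRM2B rose by 0.37 ± 0.03 and 0.56 ± 0.06, and RRM1 was not called. Among 23 genes of NADPH and redox supply 8 rose and 3 fell, beside 22.1% and 21.7% over all tested genes. Falls numbered 5 when scaled by library totals alone or with at least 1 CPM on average. NFE2L2, the oxidant-response factor NRF2, rose by 0.69 ± 0.04. Its targets diverged: GCLM rose by 0.45 ± 0.06, GSR fell by 0.70 ± 0.08, and TXNRD1, NQO1 and HMOX1 were not called. Against empty vector 12 genes of this list were lower with F158E.

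Most tested DNA replication genes fell and most mitosis genes rose. Of 41 replication and S phase genes, 25 fell and 2 rose, with a median of -0.17 and 1 rise without F158E replicate 2 or full-length replicate 2. MCM3, a subunit of the replicative helicase, was at 531 and 519 CPM with full-length PML/RARα, 353 and 351 CPM with F158E and 289.9 and 307 CPM with empty vector, and fell by 0.58 ± 0.03. MCM4 and MCM6 fell by 0.34 ± 0.03 and by 0.33 ± 0.03, the polymerase subunit POLD2 fell by 0.46 ± 0.04, and CCNE2, an S phase cyclin, rose by 0.57 ± 0.10. Of 41 mitosis genes, 32 rose and 1 fell, with a median of 0.36. PRC1, which bundles the central spindle, was at 173 and 177 CPM with full-length, 313 and 314 CPM with F158E and 375 and 377 CPM with empty vector (0.84 ± 0.04). The other cytokinesis genes ANLN and ECT2 rose by 0.81 ± 0.03 and 0.81 ± 0.05, with TOP2A at 0.39 ± 0.02, while CCNA2 and CDC20 were not called and the phosphatase CDC25B fell by 0.51 ± 0.06. Of 14 tested histone genes, 10 rose, such as H1-10 (0.84 ± 0.09), and the rest were not called, with 6 rises without F158E replicate 2. The fraction of cells in each cycle phase was not measured.

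Cell cycle brakes and death genes were mixed. CDKN1B, the inhibitor p27, rose by 0.94 ± 0.07 from 38.3 and 40.1 to 76.3 and 73.7 CPM. CDKN1A, the inhibitor p21, was at 6.77 and 9.56 CPM with full-length PML/RARα, 3.2 and 3.84 CPM with F158E and 7.87 and 7.34 CPM with empty vector, and fell by 1.21 ± 0.25 to below both. The list of brakes and p53 targets had 10 rises and 8 falls among 30, beside 22.1% and 21.7% over all tested genes. Of 26 death genes 12 rose and 3 fell, with rises on both sides of the balance. The survival genes MCL1 and BCL2 rose by 0.50 ± 0.03 and 0.54 ± 0.08, and CFLAR, which blocks caspase 8, rose by 0.85 ± 0.06. The death genes BCL2L11 and PMAIP1 rose by 0.85 ± 0.08 and 1.12 ± 0.12. APAF1, the caspase platform, fell by 0.72 ± 0.10.

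Cytosolic chaperones, proteasome and lysosome moved little or apart. Heat shock genes rose in 7 and fell in 7 of 24 cases, beside 22.1% and 21.7% over all tested genes, and HSPA8 and HSP90AA1 were not called. Proteasome subunits rose in 8 and fell in 12 of 35, beside the same shares over all tested genes. There were 5 rises without full-length replicate 2. Falls numbered 6 without F158E replicate 1 and 7 without full-length replicate 1 or with no filter beyond 1 count. PSMB5, the chymotrypsin-like subunit, rose by 0.43 ± 0.05. The medians of these lists changed sign between scalings and are not given. Lysosomal genes fell in 16 and rose in 7 of 42 cases. GM2A and TPP1 fell by 0.97 ± 0.13 and by 0.52 ± 0.07, and SQSTM1, the autophagy receptor, rose by 0.51 ± 0.06. In iron handling TFRC, the transferrin receptor, went from 675 and 674 to 1062 and 1076 CPM (0.66 ± 0.02). ALAS1, which opens heme synthesis, rose by 1.14 ± 0.04, while the later heme enzymes UROS, UROD and CPOX fell by 0.37 ± 0.07, by 0.52 ± 0.11 and by 0.38 ± 0.09. The list as a whole had 7 rises and 8 falls among 25, beside 22.1% and 21.7% over all tested genes. Its falls numbered 5 without F158E replicate 2.

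Acute promyelocytic leukemia is known for disordered coagulation. Coagulation and matrix protease genes rose in 7 and fell in 7 of 25 cases, beside 22.1% and 21.7% over all tested genes. THBS1, thrombospondin, was at 53.5 and 51.9 CPM with full-length PML/RARα, 249 and 240.3 CPM with F158E and 524 and 533 CPM with empty vector (2.22 ± 0.04). PLAU, the plasminogen activator urokinase, rose by 1.74 ± 0.07. ANXA2, a plasmin receptor raised in this leukemia, was at 128 and 121 CPM with full-length, 56.2 and 51.9 CPM with F158E and 62 and 60.1 CPM with empty vector and fell by 1.2 ± 0.07. MMP2 fell by 2.13 ± 0.16, opposite to MMP9. F3, tissue factor, rose by 0.26 ± 0.10 (adjusted p = 0.0267), and its call was lost without F158E replicate 1, F158E replicate 2 or full-length replicate 1 (adjusted p between 0.0805 and 0.186). Kinases of myeloid cells rose in 7 and fell in 7 of 24 cases, and falls numbered 3 without full-length replicate 2. Over all tested genes 22.1% rose and 21.7% fell. YES1, a SRC family kinase, rose by 1.72 ± 0.06 from 41.7 and 40.4 to 133 and 138 CPM, and BTK fell by 0.56 ± 0.04. Clock genes were called in few cases, 1 up and 2 down of 15 (4 down with scaling by library totals alone). The clock output factor DBP fell by 2.18 ± 0.12 from 70.2 and 66.5 to 12.8 and 17.4 CPM, with 11.7 and 10.2 CPM in empty vector.

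The largest falls among well-counted protein-coding genes had full-length PML/RARα as the high group. MACC1, a regulator of MET expression, was at 38.2 and 40.2 CPM with full-length, 6.71 and 4.16 CPM with F158E and 10.7 and 9.50 CPM with empty vector, and fell by 2.85 ± 0.16. EMP1, an epithelial membrane protein, fell by 2.69 ± 0.20 and POMGNT1, a glycosyltransferase, fell by 2.0 ± 0.14. SAPCD2, a spindle orientation protein, was at 156 and 149 CPM with full-length, 25.8 and 30.2 CPM with F158E and 27.3 and 27 CPM with empty vector, so that F158E lay at the empty vector level (-2.45 ± 0.08 over full-length). ARCN1 and NAPA, which act in transport between ER and Golgi, fell alongside. ARCN1, the delta subunit of the COPI coat, was at 336 and 334 CPM with full-length, 88.2 and 90.9 CPM with F158E and 89.2 and 95.8 CPM with empty vector (-1.9 ± 0.05, adjusted p = 4.36e-53). NAPA, the adaptor alpha-SNAP, was at 141 and 137 CPM with full-length, 38.2 and 36.5 CPM with F158E and 34.7 and 31 CPM with empty vector (-1.89 ± 0.07). Other coat genes, chosen after their values were seen, did not follow: COPA and COPB1 fell by 0.28 ± 0.04 and by 0.24 ± 0.04, COPG1, COPE and COPZ1 rose by 0.17 ± 0.05, 0.15 ± 0.06 and 0.21 ± 0.05, and COPB2 and COPG2 were not called. The rise of COPG1 was not called without F158E replicate 1 (adjusted p = 0.175), nor that of COPE without F158E replicate 2 or either full-length library (adjusted p between 0.0726 and 0.251). NSF, the partner of NAPA, rose by 0.31 ± 0.09.

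Among the largest rises not yet described, GPR84, a receptor of medium-chain fatty acids on myeloid cells, was at 7.96 and 6.82 CPM with full-length PML/RARα, 43.3 and 43.4 CPM with F158E and 48.8 and 43.4 CPM with empty vector (2.55 ± 0.12). SLC2A6, a glucose transporter family member, rose by 2.34 ± 0.12, and APOLD1 by 2.25 ± 0.17. The non-coding RNA with the largest rise was MIR223HG, host of the granulocyte microRNA miR-223, at 13.2 and 12.9 CPM with full-length, 46.2 and 47.7 CPM with F158E and 59.6 and 53.9 CPM with empty vector (1.84 ± 0.10). Of other genes not typed as protein coding, the T cell receptor segment TRGC2 and the pseudogene SMG1P7 rose by 1.55 ± 0.11 and 1.45 ± 0.19. The pseudogene CUTALP and the RNAs MIR4435-2HG and SATB1-AS1 had the largest falls (-1.11 ± 0.20, -0.90 ± 0.16 and -0.88 ± 0.22). Without strand, reads of an antisense RNA and its partner cannot be told apart. A list of known long non-coding RNAs fell in 12 and rose in 1 of 27 cases (median -0.27). It included GAS5, a host of small nucleolar RNAs, which fell by 0.57 ± 0.06 from 135 and 144 to 93.8 and 93.9 CPM, and NEAT1, the paraspeckle scaffold, which fell by 0.38 ± 0.07.

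Markers of eosinophils, basophils and mast cells, sister lineages of the neutrophil, rose in part. Of 14 tested, 7 rose and the rest were not called, with a median of 0.91, or 0.48 with genes at 0 counts in a group, CLC and HPGDS, set to their bound. These 2 genes had enough counts to test only through ΔIDR, with 8.02 and 8.42 CPM there for CLC and 0.905 and 1.79 CPM for HPGDS. HDC, which makes histamine, was at 208 and 216 CPM with full-length PML/RARα, 562 and 536 CPM with F158E and 427 and 433 CPM with empty vector (1.37 ± 0.03). PRG2, the eosinophil major basic protein, was at 116 and 127 CPM with full-length, 299 and 291 CPM with F158E and 267 and 269 CPM with empty vector (1.28 ± 0.04). For both, F158E lay above full-length and empty vector. With ΔIDR, HDC was at 391 and 384 CPM, below F158E, and PRG2 at 503 and 505 CPM, above it. EPX, eosinophil peroxidase, was at 94.2 and 89.6 CPM with full-length, 209 and 211 CPM with F158E and 108 and 106 CPM with empty vector and rose by 1.19 ± 0.04 over full-length and by 0.98 over empty vector (adjusted p = 7.06e-35). With ΔIDR, EPX stood higher still, at 510 and 502 CPM. Against empty vector 4 genes of this list were higher with F158E. Mast cell markers such as CPA3, MS4A2 and TPSAB1 stood under 2 CPM in these groups, and KIT was too low to test. Monocyte markers rose in 6 of 10 tested cases, among them FCGR1A (1.22 ± 0.10), while CD14 was under 1.5 CPM in these groups. Of 19 lymphoid markers 7 had enough counts to test, of which 1 rose and 2 fell, and of 16 epithelial, stromal and vessel markers 8 had, of which 1 rose and 4 fell. The falls CD79B, CD22, KRT8, CLDN4, DCN and LUM stood under 9 CPM. The rises were CD4 and PECAM1: CD4, also made by monocytes, went from 235 and 233 to 251 and 251 CPM (0.10 ± 0.04) and PECAM1, also on leukocytes, from 33.9 and 36.6 to 52.1 and 48.3 CPM (0.51 ± 0.08). Lymphoid falls numbered 1 without F158E replicate 1 or 2, with DESeq2, in a fit of the 4 libraries alone and under both other filters, and the lymphoid rise was lost without F158E replicate 1, F158E replicate 2 or full-length replicate 2. Epithelial and stromal falls numbered 1 without F158E replicate 1 or full-length replicate 2 or with at least 1 CPM on average, and 2 without F158E replicate 2. The erythroid and platelet markers EPOR, ITGA2B, GP1BA and VWF were not called, and hemoglobin genes and PAX5 were too low to test.

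Genes of the promyelocytic leukemia signature, high in patients' leukemic cells against other leukemias, rose in 4 and fell in 6 of 18 cases, with 3 falls without F158E replicate 1. Shares over all tested genes were 22.1% higher and 21.7% lower, so the rises of this list were near that share. HGF, hepatocyte growth factor and a ligand of MET, was at 5.06 and 5.13 CPM with full-length PML/RARα, 34.8 and 35.4 CPM with F158E and 19.9 and 16.6 CPM with empty vector. It rose by 2.78 ± 0.15 over full-length and by 0.94 over empty vector (adjusted p = 3.63e-08). FGFR1, a fibroblast growth factor receptor, had 19.9 and 21.5 CPM with full-length, 8.31 and 7.95 CPM with F158E and 4.42 and 4.17 CPM with empty vector. It fell by 1.35 ± 0.19 and stayed above empty vector (log2 change 0.92, adjusted p = 0.00111). PGBD5 showed the same order (-1.35 ± 0.19 over full-length). HGF and FGFR1 thus differed in opposite directions between the same groups.

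**Figure D3:**
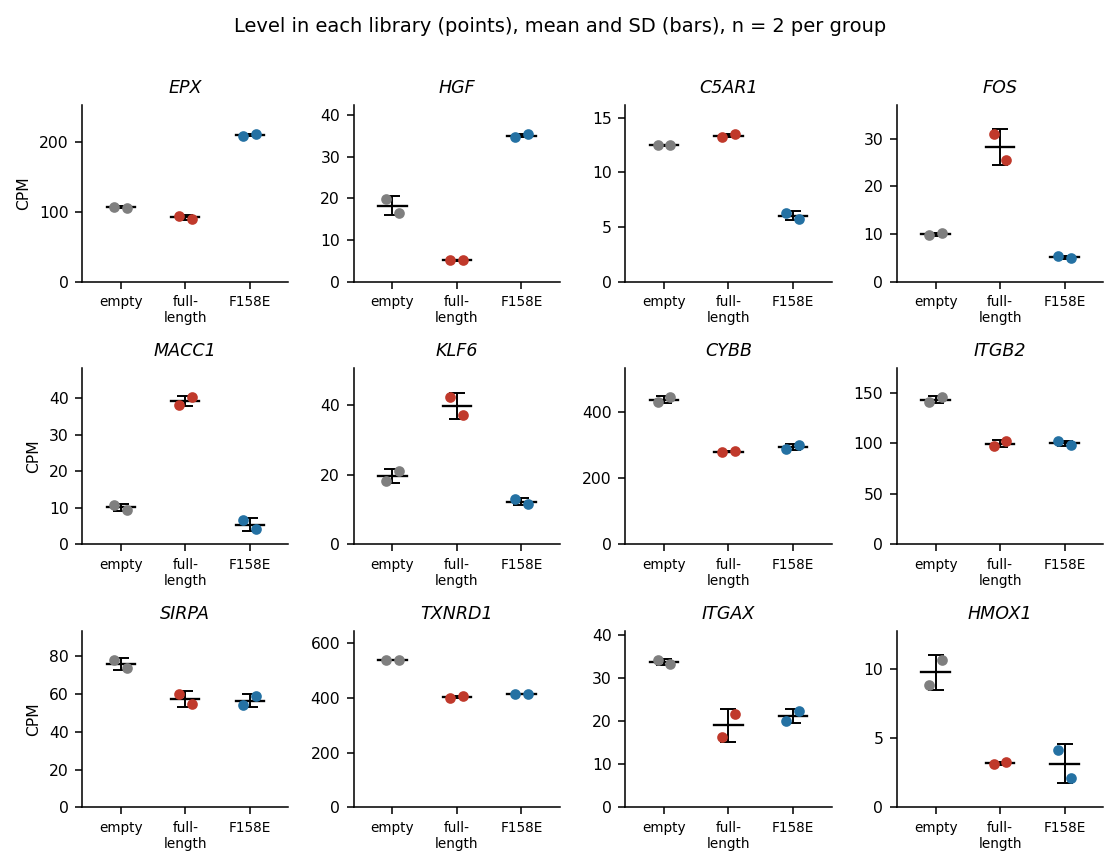
Level of 12 genes in CPM (vertical axes, from 0) in each library; points are libraries, long bars the mean and short bars the SD. In EPX, HGF, C5AR1, FOS, MACC1 and KLF6 the F158E libraries lie outside both other groups, and in CYBB, ITGB2, SIRPA, TXNRD1, ITGAX and HMOX1 they lie near the full-length level.

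F158E did not stand between the other groups for every gene. EPX, HGF, C5AR1, FOS, MACC1 and KLF6, picked for this after their values were seen, had F158E libraries outside the range of both other groups, above it for EPX and HGF and below it for the rest. Another set, picked in the same way, stayed near the full-length level and below empty vector. ITGB2, the common chain of leukocyte integrins, was at 97.2 and 102 CPM with full-length PML/RARα, 102 and 98.4 CPM with F158E and 141 and 146 CPM with empty vector. Its F158E and full-length libraries overlapped and the difference was not called (0.0057 ± 0.05), while F158E was below empty vector (log2 change -0.51, adjusted p = 3.07e-13). ITGAX, an alpha chain that pairs with ITGB2, was at 16.4 and 21.7 CPM with full-length, 20.05 and 22.4 CPM with F158E and 34.2 and 33.3 CPM with empty vector, with a difference from full-length that was called, among the alternatives run, only without full-length replicate 2 (adjusted p = 0.0392). TXNRD1, thioredoxin reductase, was at 399 and 406 CPM with full-length, 415 and 414 CPM with F158E and 537 and 536 CPM with empty vector (0.042 ± 0.03 over full-length, -0.37 over empty vector). SIRPA, the phagocyte receptor of CD47, was at 60.2 and 54.5 CPM with full-length, 54.1 and 58.8 CPM with F158E and 77.9 and 73.5 CPM with empty vector, and HMOX1, heme oxygenase, at 3.13 and 3.27 CPM with full-length, 4.16 and 2.15 CPM with F158E and 8.90 and 10.7 CPM with empty vector. A difference that was not called does not show that the levels were the same.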

How the data were processed

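RNA of NB4 cells was sequenced from rRNA-depleted total RNA with a kit that does not mark strand, per the labels' protocols. The authors deposited raw read counts per gene identifier for each library, with GRCh38 (hg38) named in the submitters' processing notes; aligner, counter and annotation release are not given in the sources used here. Of 60483 identifiers, 56321 matched a symbol. The 5 lines of reads with no single gene were left out of library sizes and tests; 87.9% to 88.7% of recorded reads were assigned to genes.

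Counts of all 8 libraries were fitted with edgeR 4.0.16 in R 4.3.3 (TMM, filterByExpr, robust quasi-likelihood test on group, no replicate term), with Benjamini-Hochberg adjustment over the 13982 genes kept; every adjusted p in the text is from this fit unless another is named. The fit shares 1 estimate of spread over the 4 groups, and log2 CPM used a prior count of 2. The script was tested on simulated counts. Gene counts of 16779364 to 21965389 a library set the precision. Replicates differed by more than counting noise (chi-square per degree of freedom 2.944 to 3.557), and equal replicate numbers did not deviate together between F158E and full-length (r = 0.0167 across genes, which are not independent replicates), so they were not paired. Alternatives changed the scaling, the filter, the libraries fitted, the test (DESeq2 1.42.0, a fold limit), the replicate block and the libraries left out. Positions and gene types are from GENCODE 29.

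Genes named are PML and RARA, the 10 largest rises and falls at 3 log2 CPM or more, the strongest calls of each list (4 in its main direction, 2 in the other), the 3 largest of each direction that are not protein coding, and a panel. Other genes named, many of them given as not called or as close relatives, were chosen after their values were seen. Members and lists were chosen with earlier results of these data known. Promoters are RefSeq windows (GRCh38.p14) matched by symbol. Some genes are not reported here.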

Additional observations from a re-analysis of the deposited data

Results flagged for a closer look

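Reads that the deposited tables list with no gene were outside the comparison of genes. They made up 4.29% and 4.28% of the recorded reads in the F158E libraries, 3.65% and 3.66% in the full-length libraries and 3.95% and 3.98% with empty vector. The F158E libraries were above both groups, and the ΔIDR libraries stood at 4.27% and 4.37%. The share moved with the groups compared, and its part in the results was not tested.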

How the results depend on the processing

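The 6126 calls between F158E and full-length PML/RARα (3089 higher, 3037 lower) stayed within 1.5 times of that number under every alternative except a test against a 1.5-fold change with glmTreat, which called 916 genes, 531 higher and 385 lower. With it 122 named genes lost their call between F158E and full-length and 169 kept theirs or stayed uncalled, and 94 list counts moved by over 1.5 times against 18 that did not. Falls went from 25 to 0 for DNA replication, 42 to 0 for cytosolic ribosomal proteins, 27 to 0 for nuclear respiratory genes (each also 0 at an unadjusted p under 0.05), 33 to 3 for ribosome assembly and 16 to 1 for coregulators, and rises from 32 to 3 for mitosis, 17 to 8 for sterol synthesis and 11 to 2 for mitochondrially encoded genes. With that test 9 named genes differed between F158E and empty vector, in place of 125, and 138 between full-length PML/RARα and empty vector, in place of 286; a stricter hypothesis is tested there. The replicate block gave 6098 calls (3069 higher, 3029 lower) and, since replicate numbers did not deviate together, is no paired analysis by design. DESeq2 called 5436 genes, scaling by library totals alone 6146 (2932 higher, 3214 lower), and libraries thinned to the smallest total, an alternative added after seeing the data, 5967. Leaving out each of the 4 libraries in turn gave 5063 to 5201 calls, 2598 to 2687 higher and 2454 to 2526 lower; the lone library is then assumed to vary like the other groups. On leaving out a library, named genes called against empty vector ranged from 97 to 127 with F158E and from 277 to 288 with full-length. No named gene that was called changed sign under the alternatives run. The balance of all calls did change, with more falls than rises under library totals alone and with at least 1 CPM on average (3009 higher, 3069 lower). Library totals alone moved the median of all genes to -0.02 and ended the call of NPM1 (adjusted p = 0.192) and FOSL1 (0.0519), and made those of ASNS, HSP90AA1 and CCNA2. Depth limits genes under a few CPM, and 2 libraries a group limit every comparison.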

Other observations

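Calls differed by kind of gene. Of 11608 protein-coding genes, 24.5% rose and 25.1% fell with F158E against full-length PML/RARα. Among 737 antisense genes 9.23% rose and 4.21% fell, among 426 long intergenic RNAs 11.3% and 6.81%, and among 82 genes inside introns on the same strand 10.98% and 1.22%. These classes are also lower in level, and the kit did not mark strand, so reads of such genes and of the genes they overlap cannot be told apart. ACTB, the beta-actin gene and second in counts to EEF1A1 among these 4 libraries, was at 7168 and 7036 CPM with full-length, 5548 and 5502 CPM with F158E and 5675 and 5620 CPM with empty vector, and fell by 0.36 ± 0.02 (adjusted p = 3.86e-36). Among ER and Golgi transport genes picked after their values were seen, NAPG, a relative of NAPA, rose by 0.35 ± 0.10, and NAPB was not called (0.14 ± 0.19).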
